A study of Bos taurus with 12 samples.

Results

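The regions described here are stretches of the bull genome that lie between genes yet within 50 kb of an annotated feature, and their DNA methylation was compared in sperm. They are the 500 bp windows (tiles) on autosomes that the authors' deposited table places in its distal intergenic class at a distance of at most 50000 bp from the closest annotated gene feature or CpG island. Of 7290 listed tiles, 789 met these conditions after 5 stretches were left out (chromosome 1 below 0.7 Mb, chromosome 6 from 5 to 6 Mb, chromosome 14 from 13 to 14 Mb, chromosome 18 from 57 to 57.5 Mb and chromosome 21 from 32.5 to 33.5 Mb). The study profiled sperm DNA of male cattle (Bos taurus) by enzymatic methylation sequencing (EM-seq) in 12 samples, 6 labelled low BFI and 6 labelled high BFI. What BFI stands for is not written in the labels. The series concerns bull fertility, and the labels used here give the groups no treatment, breed, age or other trait, nor how many bulls gave the 12 samples. No level per gene or sample was used here, so the sperm label could not be checked against markers of sperm, leukocytes or gland epithelium.

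EM-seq converts cytosines that carry no methyl group by enzymes, without bisulfite, and those with one are still read as C. Mammalian sperm DNA is methylated at most CpG sites, while CpG islands, which are short runs rich in CpG, are usually kept free of it. Sequence between genes can hold enhancers, repeats and unannotated transcripts, and in sperm most of it is packed by protamines in place of histones.

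The differences, p-values and q-values below are the authors' own, and the counts and medians were taken from them. For each tile, the authors' deposited table gives the difference in methylation between the low BFI and high BFI groups, read here as percentage points, a p-value and a q-value, which is a p-value adjusted for the number of tiles tested. The order of subtraction is not stated, so a negative difference means lower in one group, and neither group is named as the more methylated. Values per sample and sequencing depth are unknown here. No spread between samples could be computed, and the deposited q cannot be set against it. Positions are those of the deposited table on ARS-UCD1.2 (bosTau9), and gaps run from the edge of a tile to the edge of its closest feature.

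Tiles start on a grid of 100 bp, and 657 of the 789 intergenic tiles share bases with the one listed before them. A further limit on counting is that 39 tiles hold the same difference (to within 1e-09) as the overlapping tile before. Tiles were therefore merged into loci wherever the gap between them was at most 1000 bp. This gave 94 loci on 23 autosomes, with a median length of 900 bp (range 500 to 14600 bp) and a median of 4 tiles. Only 9 loci were single tiles. Merging at gaps of at most 50000 bp left 60 wider stretches, 47 of which held 1 locus.

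Most of these intergenic tiles differed by little, and mostly in one direction. In the authors' deposited table, 628 of the 789 tiles (79.6%) had a negative difference, against 71.6% of all listed tiles and 65.6% of the 4810 autosomal tiles outside the left-out stretches. The median difference was -1.77 points, and the median size without regard to sign was 2.003 points (quartiles 0.944 and 3.51), against 1.48 points over all listed tiles and 1.02 over those 4810. The range ran from -10.4 to 9.70 points. A size under 1 point was recorded for 217 tiles (27.5%), against 41.1% of all listed tiles and 49.6% of those 4810. At the other end, 102 tiles (12.9%) in 21 loci reached 5 points, against 15.4% of all listed tiles and 9.65% of those 4810. Of the 102, 100 were negative and 2 positive, and all had a q under 0.05.

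A tile was counted as differentially methylated when the deposited q was under 0.05 and the difference was at least 10 points in either direction. Of the 789 intergenic tiles, 6 (0.760%) met both conditions, against 2.78% of all listed tiles. All 6 were negative, where 2.63% of all listed tiles were counted as negative, and they fell in 3 loci. With no minimum difference, 592 tiles (75.03%) had a q under 0.05, against 71.8% of all listed tiles. Negative tiles with a q under 0.05 numbered 505 (64.0% of the 789), against 55.9% of all listed tiles. Positive ones numbered 87 (11.03% of the 789), against 15.9%. The whole table holds chromosome X and the left-out stretches, which the choice of tiles removed. Over the 4810 autosomal tiles outside those stretches, 0.915% were counted and 67.4% had a q under 0.05. Negative tiles with such a q made up 48.1% of the 4810, and positive ones 19.3%. Against this like set the counted share of the intergenic tiles was close, and the share passing q alone was higher, with no test of either difference. Of the 44 counted tiles of the like set, 43 were negative, so a negative sign is not particular to the 6 intergenic ones.

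Counted by locus, 58 of the 94 had negative tiles only, 15 had positive tiles only and 21 held both signs. The tile with the largest difference was negative in 73 loci (77.7%) and positive in 21, with a median size of 2.90 points. Over all 1193 loci formed the same way from the listed tiles, 61.8% had a negative leading tile, with a median size of 1.06 points. Over the 1011 loci formed from the autosomal tiles outside the left-out stretches, these values were 58.5% and 0.884 points. A leading tile is the largest of its locus, so its size can grow with the number of tiles there. The 94 loci were formed from 789 tiles and the 1011 from 4810, so these sizes are not on a like basis. A leading q under 0.05 was found in 76 of the 94 loci, 59 of them negative and 17 positive. Over the 1193 loci, 73.9% had a leading q under 0.05, with 49.0% negative and 24.9% positive. By wider stretch, the leading tile was negative in 42 of 60 and positive in 18. These are descriptions of the listed tiles, since it is not known how the authors chose the tiles they list.

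**Figure D1:**
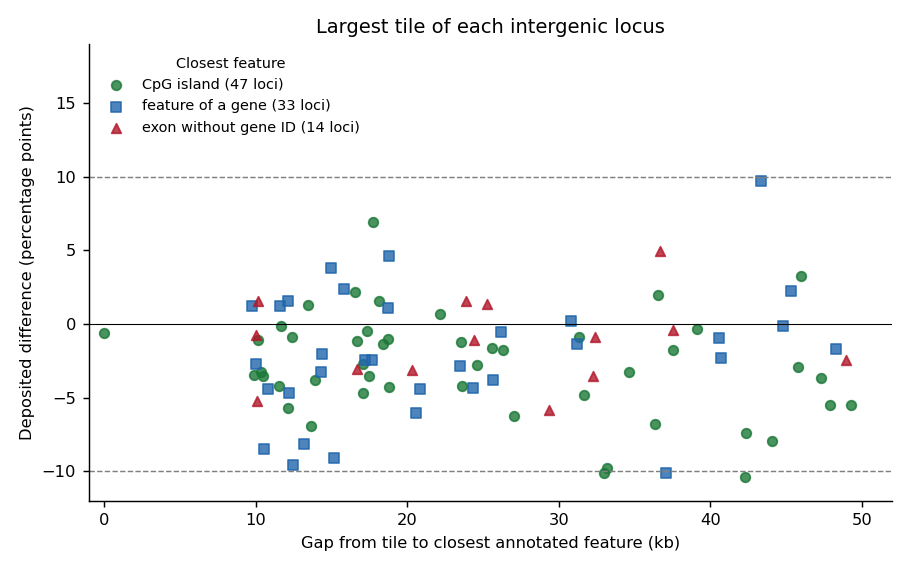
Deposited methylation difference (percentage points) of the largest tile in each of the 94 intergenic loci, against its gap to the closest annotated feature (kb). Colour and shape give the kind of feature, and dashed lines mark 10 points in either direction. The 3 loci past the lower line lie over 30 kb from their feature, and no locus passes the upper line.

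The locus with the largest difference lies on chromosome 18, at chr18:50742401-50743900, with a CpG island as its closest feature. Its 11 overlapping tiles were all negative in the authors' deposited table, from -10.38 to -5.88 points with a median of -9.19. The differences of the first 7 tiles, by start, were -9.19, -9.93, -10.35, -10.25, -9.70, -10.38 and -9.14 points. The last 4 were -7.50, -6.49, -5.88 and -5.94 points. The locus was thus lowest in its first part, and 3 tiles there passed 10 points. The leading tile, chr18:50742901-50743400, had a q of 1.01e-26 and lay 42249 bp from the island. The locus sits inside a longer intergenic stretch in which both signs occur, described further on.

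A second locus, at chr11:5456201-5458200, held 16 tiles, all negative, from -10.13 to -6.48 points with a median of -7.25. Its closest feature is again a CpG island. Its first 5 tiles, by start, had deposited differences of -8.95, -9.71, -9.84, -10.13 and -10.02 points, and the other 11 lay between -7.83 and -6.48. Counted tiles numbered 2, and the leading tile, chr11:5456501-5457000, had a q of 3.81e-101 at 33007 bp from the island.

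The third is the one counted locus whose closest feature belongs to a gene. At chr20:15068701-15069900, 8 tiles were all negative in the authors' deposited table, from -10.12 to -5.83 points with a median of -8.91. The leading tile, chr20:15068901-15069400, had a q of 2.58e-55 and was the single counted tile. It lies 37059 bp from an exon of RNF180 (ENSBTAG00000043992), on the downstream side of that gene. RNF180 encodes a membrane-bound ring finger protein that attaches ubiquitin to other proteins. The table gives distance only, so the locus is placed near the gene and not assigned to it.

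**Figure D2:**
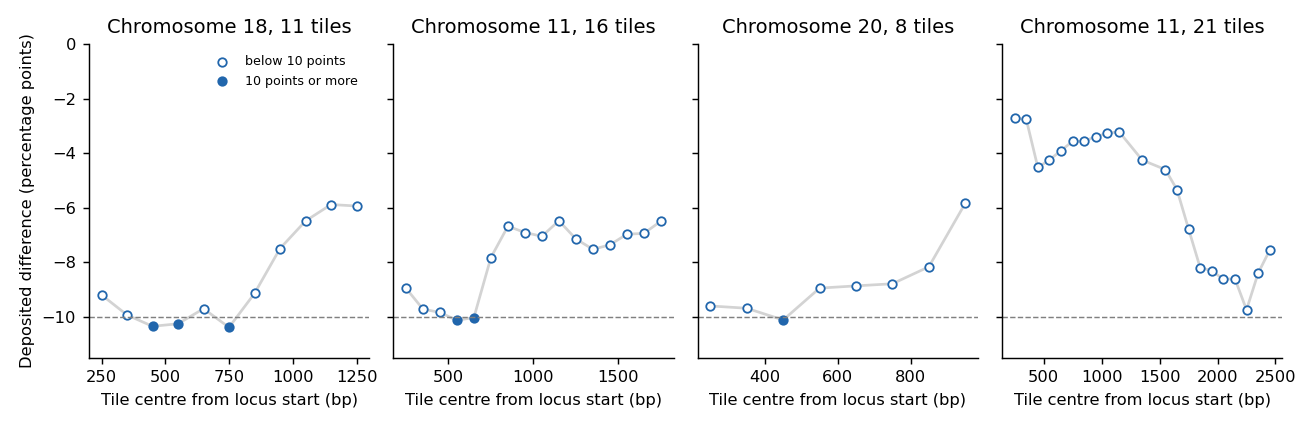
Deposited methylation difference (percentage points) of each 500 bp tile along the 3 loci with a counted tile and the next largest locus, against the distance of the tile's centre from the start of the locus (bp). Filled points reach 10 points in size (dashed line), and every tile of the first 3 panels lies below -5 points, while the second chromosome 11 locus runs from -2.71 to -9.74.

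A further 7 loci complete the 10 largest negative differences, and all fall short of 10 points. At chr11:43478201-43480900, about 33 kb from a CpG island (33144 bp for the leading tile), 21 tiles ran from -9.74 to -2.71 points with a median of -4.53. The smallest q of all intergenic tiles described here, 4.46e-142, belongs to its tile chr11:43479901-43480400, with a deposited difference of -8.31 points. The smallest q is therefore not that of the largest difference.

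The next loci lie near genes that carry an identifier and no name in the table. At chr3:31996501-31998200, 13 tiles had a median of -6.80 points and a leading value of -9.58 (q 9.47e-80), 12461 bp from coding sequence of ENSBTAG00000053654. At chr13:11227701-11229600, 10 tiles had a median of -6.79 points and a leading value of -9.08 (q 2.85e-13), 15141 bp from coding sequence of ENSBTAG00000049042. Both loci lie on the upstream side of those genes. At chr29:5701101-5702000, 5 tiles had a leading value of -8.50 points (q 3.45e-28), 10556 bp from an intron of ENSBTAG00000009197. The identity of these genes is uncertain.

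The last of the 10 lie near an olfactory receptor gene and near CpG islands. Near OR7A17, 4 tiles at chr7:8768501-8769400 were negative in the authors' deposited table, with a leading value of -8.12 points (q 6.57e-06) at 13206 bp. At chr18:50723101-50729700, 24 of 30 tiles were negative, with a leading value of -7.96 points (q 1.14e-16). At chr8:34788501-34789500, 6 tiles had a leading value of -7.38 points (q 8.56e-54), 42355 bp from an island.

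Positive differences were fewer and mostly smaller. The largest was 9.70 points (q 5.98e-12) at chr1:29014201-29014700, a single tile 43330 bp upstream of coding sequence of ENSBTAG00000008359. The next was 6.91 points (q 3.63e-14) in the tile that starts at 42324001 on chromosome 25, in a locus of 3 tiles 17745 bp from a CpG island. No other tile reached 5 points in the positive direction. The following loci had highest values of 4.93 points on chromosome 13 (q 5.79e-11), 4.61 near UGT1A6 on chromosome 3 (q 0.000170), 4.55 on chromosome 18 (q 1.05e-04) and 3.79 near C1H21orf62 on chromosome 1 (q 6.70e-07). The remaining 4 of the 10 largest were 3.22 points on chromosome 10 (q 1.67e-07), 2.38 near AZIN2 (q 0.00369), 2.23 near SETD4 (q 0.00563) and 2.20 on chromosome 8, whose q of 0.0962 did not pass. The smallest q of a positive tile was 3.13e-18, at chr13:360901-361400, with a deposited difference of 4.50 points.

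The tiles were unevenly spread over the genome. The 3 stretches with the most tiles held 368 of the 789 (46.6%), and the 6 largest held 501 (63.5%). The first 1 Mb of 9 chromosomes held 396 tiles (50.2%) in 24 loci, where 27.8% of all listed tiles lie in the first 1 Mb of a chromosome. There, 82.8% of the intergenic tiles were negative, none was counted, and the median size was 1.96 points. Elsewhere, 393 tiles in 70 loci were 76.3% negative, 6 were counted, and the median size was 2.10 points. The leading tile was negative in 22 of the 24 loci of the first 1 Mb and in 51 of the 70 others. The same split over all listed tiles gave 0.691% counted and 77.0% negative in the first 1 Mb, and 3.59% counted and 69.5% negative elsewhere. The negative share and the counted share thus differed in the same direction as in the whole table. The median size did not, being 2.15 points in the first 1 Mb and 1.08 points elsewhere over all listed tiles. Of the 14 listed tiles counted in the first 1 Mb, 10 were positive and 4 negative. All 10 positive ones lay in the left-out stretch of chromosome 1 below 0.7 Mb. The values over all listed tiles include chromosome X and the left-out stretches.

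The largest stretch lies near the start of chromosome 13, at chr13:69001-136800, with 155 tiles in 6 loci. Negative differences were deposited for 150 of these tiles, and the median was -2.45 points. Its longest locus, chr13:98001-106400, held 72 tiles, of which 68 were negative, and a run of 48 negative tiles from 98801 to 104700 all had a q under 0.05. The differences in that run lay between -4.72 and -0.82 points. The lowest value of the stretch was -6.95 points, in the locus from 130901 to 132100. Small differences of 1 sign thus ran through all 6 loci, with few exceptions.

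The stretch at chr18:50658901-50768200 held 134 tiles in 12 loci and includes the locus with the largest difference. Here 97 tiles were negative and 37 positive, with a median of -1.25 points. Signs changed over short distances. Beyond the counted locus, 4 positive tiles from 50745901 to 50747400 stayed under 1 point. Tiles from 50751901 to 50754300 then reached -4.83 points, and the 6 tiles from 50755101 to 50756100 reached 4.55 points. The tiles from 50756401 to 50757300 were again negative, down to -3.46 points. Of the 134 tiles, 81 had a q under 0.05.

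At chr21:673201-693100, 79 tiles in 2 loci were of small size, 59 negative and 20 positive, with a median of -0.71 points. The locus chr21:673201-687800 held 74 tiles, the most of any locus. Its lowest difference was -3.15 points, in a run of 24 negative tiles from 679601 to 682700, and its highest was 1.58 points. The locus with the most tiles was thus not one with a large difference.

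A second stretch on chromosome 13, at chr13:346201-372500, was the one among the 6 largest with more positive tiles (36) than negative ones (24), with a median of 0.913 points. In it, 24 positive tiles from 358101 to 363400 reached 4.93 points, and 21 of them had a q under 0.05. Farther along, 7 negative tiles from 365001 to 366100 lay between -4.06 and -2.75 points, all with a q under 0.05 (smallest 3.33e-29). Its closest annotated feature is an exon of a transcript with no gene ID.

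The stretch at chr28:478301-523600 was of 1 sign throughout. All 51 tiles in its 4 loci were negative in the authors' deposited table and had a q under 0.05, between -4.23 and -0.749 points with a median of -2.49. On this chromosome a p of up to 0.503 had a deposited q under 0.05. The stretch at chr15:83950101-83953100 held 22 tiles, 21 of them negative, down to -3.51 points.

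**Figure D3:**
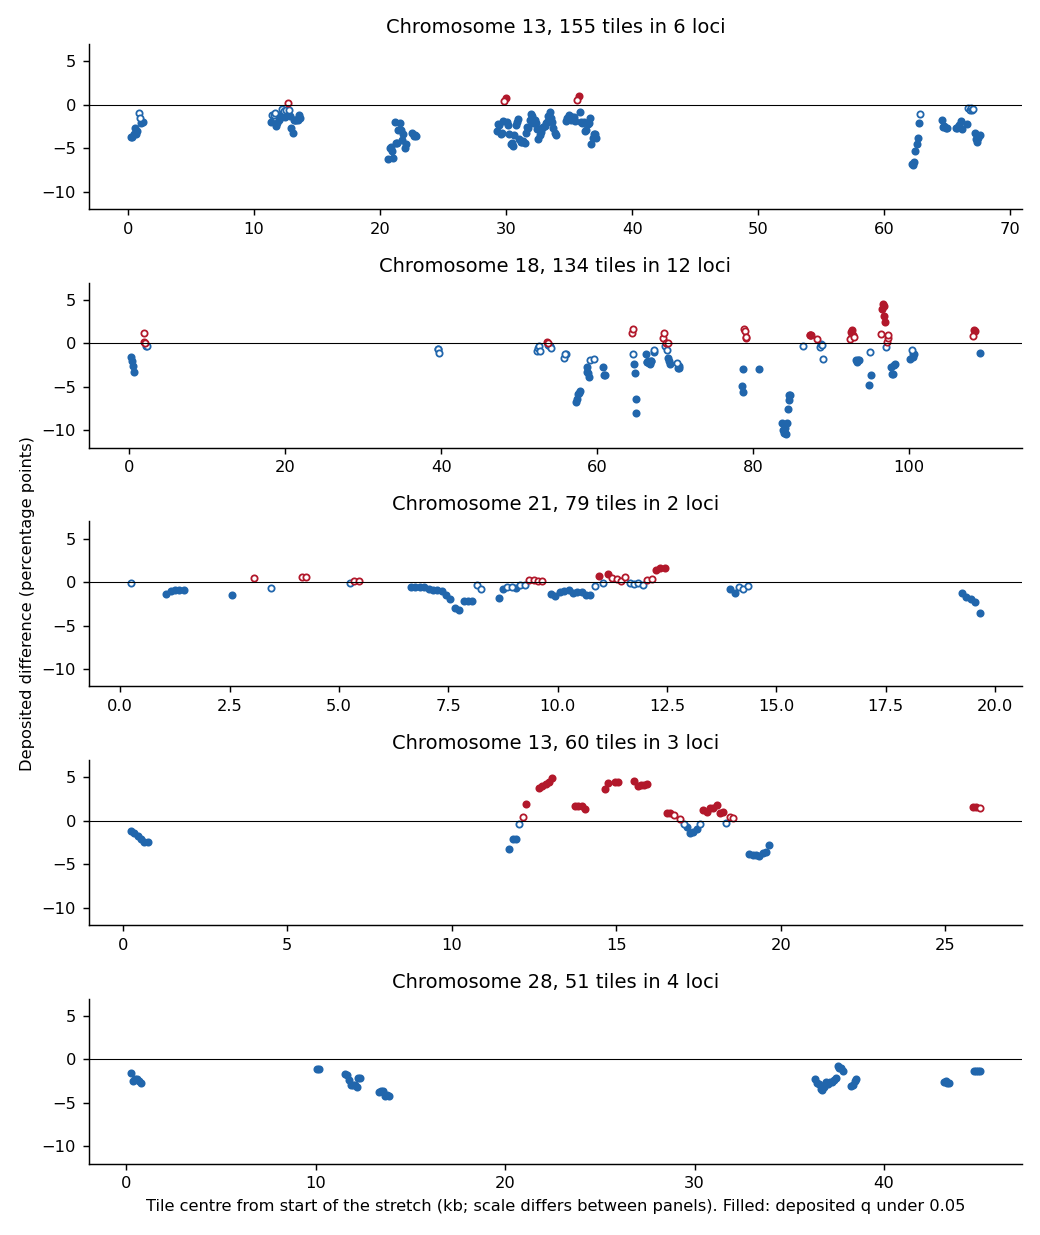
Deposited methylation difference (percentage points) of every tile in the 5 intergenic stretches with the most tiles, against the distance of the tile's centre from the start of the stretch (kb, with a scale of its own in each panel). Filled points have a deposited q under 0.05, with negative values in blue and positive ones in red. The chromosome 28 stretch lies wholly below 0, and the chromosome 18, chromosome 21 and second chromosome 13 stretches cross it repeatedly.

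Distance within the 50 kb limit did not order the size of the differences. Between 10 and 20 kb from the closest feature, 366 tiles in 46 loci were 84.7% negative with a median size of 2.12 points, and none was counted. From 20 to 30 kb, 133 tiles in 19 loci were 78.9% negative with a median size of 1.43 points, and none was counted. From 30 to 40 kb, 202 tiles in 16 loci were 69.3% negative with a median size of 1.89 points, and 3 were counted. From 40 to 50 kb, 88 tiles in 16 loci were 82.95% negative with a median size of 2.39 points, and 3 were counted. Counted tiles made up 1.49% of the 30 to 40 kb band and 3.41% of the 40 to 50 kb band. The share was 0.915% over the 4810 autosomal tiles outside the left-out stretches and 2.78% over all listed tiles. The 6 counted tiles thus all lay over 30 kb from their feature. They form only 3 loci of overlapping tiles, so no pattern with distance is read from them. Single stretches set much of these values. Without the 3 largest, the median sizes from the nearest band to the farthest were 2.22, 1.75, 3.56 and 2.62 points over 226, 48, 119 and 28 tiles, so the 30 to 40 kb band became the highest. By leading tile, 73.9%, 84.2%, 81.2% and 81.2% of the loci were negative in the 4 bands.

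Distances in the table ran from 10025 to 49954 bp with a median of 22646 bp. The nearest tile, chr20:58944901-58945400 at 10025 bp, differed by -0.719 points (q 0.0115). The farthest, chr8:34781901-34782400 at 49954 bp, differed by -5.14 points (q 3.72e-111). Just beyond the limit, tiles at 50046, 50050 and 50054 bp on chromosomes 16, 13 and 8 had deposited differences of -1.91, -1.15 and -5.28 points. The latter 2 continue loci inside the limit, so the limit of 50000 bp cuts through them. A gap above 0 was found for 786 tiles. The other 3 lie, by the coordinates in the authors' deposited table, inside a CpG island on chromosome 19 of 25867 bp (26 to 25892), although classed as distal intergenic, and their differences were between -0.62 and -0.03 points.

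By closest feature, tiles near CpG islands were the most numerous. A CpG island was closest for 495 tiles (23 islands), of which 86.7% were negative with a median size of 2.23 points and 5 were counted. A feature of a gene with an identifier was closest for 121 tiles (31 genes), of which 74.4% were negative with a median size of 2.74 points and 1 was counted. An exon of a transcript with no gene ID was closest for 173 tiles (11 transcripts), of which 63.0% were negative with a median size of 0.979 points and none was counted. Single stretches set much of these values too. Most of the 495 tiles lie in the largest stretch of chromosome 13 (155) and those of chromosomes 18 (134) and 28 (51). Most of the 173 lie in the chromosome 21 stretch (79) and the second chromosome 13 stretch (60). By leading tile the negative shares were 85.4% of 48 loci near islands, 69.7% of 33 near genes with an identifier and 71.4% of 14 near transcripts with no gene ID. Where the feature has a strand, 164 tiles lay on its upstream side (123 negative, median size 1.31 points) and 130 on its downstream side (76 negative, 1.64 points). Of the downstream tiles, 60 belong to the stretch at chr13:346201-372500, with 24 negative and 36 positive. By leading tile the sides were close, with 71.4% of 21 upstream loci and 69.2% of 26 downstream loci negative.

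The table gives 31 genes as the closest to these tiles. Described by the tile with the largest difference near each, 18 genes had a negative value with a q under 0.05, 8 a positive one, and 5 did not pass. Over all 540 closest genes of the table described the same way, with tiles of every position class, 43.1% had a negative value with a q under 0.05 and 29.3% a positive one. For 27 genes all tiles were of 1 sign. The table describes 18 of the 31 by name, of which 10 were negative, 5 positive and 3 did not pass. Of these 18 symbols, 12 lie on the same chromosome in a RefSeq gene table, which is of another assembly (ARS-UCD2.0) and served only to look up names.

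Among the named genes with negative loci, RNF180 had the largest difference. Near FLT4 (ENSBTAG00000001462), the receptor for vascular endothelial growth factors that drives growth of lymphatic vessels, all 10 tiles were negative, with a median of -2.12 points. Its leading value was -2.46 points (q 5.26e-28), 17213 bp beyond the 3′ UTR on chromosome 7. Near NWD1, a gene of the NACHT and WD repeat family, 4 of 4 tiles were negative and led by -2.46 points (q 0.000359). Near GREB1L, a coactivator of retinoic acid receptors, 3 of 3 were negative and led by -1.72 points (q 0.000941) at 48247 bp. Single tiles were negative near C16H1orf116 (-4.32 points, q 0.00267) and near the homolog of C20orf106 (-4.69 points, q 2.84e-05). A tile at 98401 on chromosome 20 near a gene described as TMEM60 differed by -4.44 points (q 0.000145). The RefSeq table places TMEM60 on chromosome 4, so this name is uncertain.

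Positive leading values were found near 5 named genes. UGT1A6, an enzyme that joins glucuronic acid to phenols and drugs, had 5 positive and 2 negative tiles, from -2.05 to 4.61 points. Its family shares exons, so the closest member is uncertain. C1H21orf62 had 2 positive tiles of 3.35 and 3.79 points. AZIN2, which frees ornithine decarboxylase from its inhibitor and so favours polyamine synthesis, had 3 positive tiles in the authors' deposited table. Their differences were 1.29, 1.55 and 2.38 points, and 2 of them had a q under 0.05. The tile of 1.55 points passed with a q of 0.0436 although its deposited p was 0.159. SETD4, a protein with the SET domain of lysine methyltransferases, had a single tile of 2.23 points. BTBD8, a BTB domain protein, had 4 positive tiles, of which 1 passed (1.58 points, q 0.0154).

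For 3 named genes the deposited q did not pass. The leading values were 0.178 points near CORO2B (q 0.390), an actin-binding coronin, and -0.160 points near NKAIN2 (q 0.242), which interacts with the sodium pump. The third was -1.35 points near TRAV24 (q 0.213), a variable segment of the T cell receptor.

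Of the gene lists looked up, only 2 had a member among the 31 closest genes. The ubiquitin pathway list had 1, RNF180, which was negative and counted. The list of multicopy families had 4, OR7A17, OR8K3, another olfactory receptor gene on chromosome 19 and TRAV24, of which 3 had a negative value with a q under 0.05, 0 a positive one and 0 were counted. With 4 genes and 43.1% negative over all closest genes, nothing particular to the list is read from this count. OR8K3 was led by -6.02 points (q 1.05e-05) at 20559 bp, in 2 overlapping tiles of the same value, and the chromosome 19 gene by -2.33 points (q 0.0206). Reads of such families can map to several copies, so these genes are uncertain. The lists of sperm and testis genes, developmental factors, imprinted genes, ion channel and synapse genes, cadherins and small RNA genes had 0 members each. The marker lists for leukocytes, for epithelium and accessory gland, and for sperm and germ line also had 0, so cell content could not be described near these tiles.

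The rest of the autosomal tiles outside the left-out stretches are given beside these values, by position class. Of 682 intergenic tiles beyond 50 kb, 2.64% were counted, 78.2% had a q under 0.05, 77.4% were negative and the median size was 2.18 points. In the promoter class (422 tiles) 1.18% were counted, 63.3% were negative and the median size was 0.766 points. Within features (1449 tiles) these values were 0.483%, 55.1% and 0.564 points, and in the downstream class (1468 tiles) 0.545%, 63.5% and 0.938 points. The median size within 50 kb, 2.003 points, was thus nearer to that of remote intergenic tiles, while the counted share, 0.760%, lay among those of the gene-near classes. By leading tile, loci were negative in 77.7% within 50 kb, 81.6% beyond 50 kb, 56.8% in the promoter class, 52.6% within features and 53.5% in the downstream class. These differences were not tested, since overlapping tiles are not independent.

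Of the intergenic tiles set aside by the rule, those on chromosome X differed from those kept in sign, size and counted share. Counted by tile, those in the left-out stretches were close to the kept tiles in sign and median size, with a higher counted share. By leading tile their signs were not close. In the left-out stretches 53.6% of 28 loci were negative, against 77.7% of the 94 kept loci. On chromosome X, 250 intergenic tiles up to 50 kb from a feature were 88.8% negative in the authors' deposited table, with a median size of 3.98 points, and 41 (16.4%) were counted. The left-out stretches held 652 such tiles, on 4 chromosomes, which were 77.0% negative with a median size of 1.96 points. Of these, 19 (2.91%) were counted, 9 negative and 10 positive. The kept tiles had no counted positive tile.

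**Figure D4:**
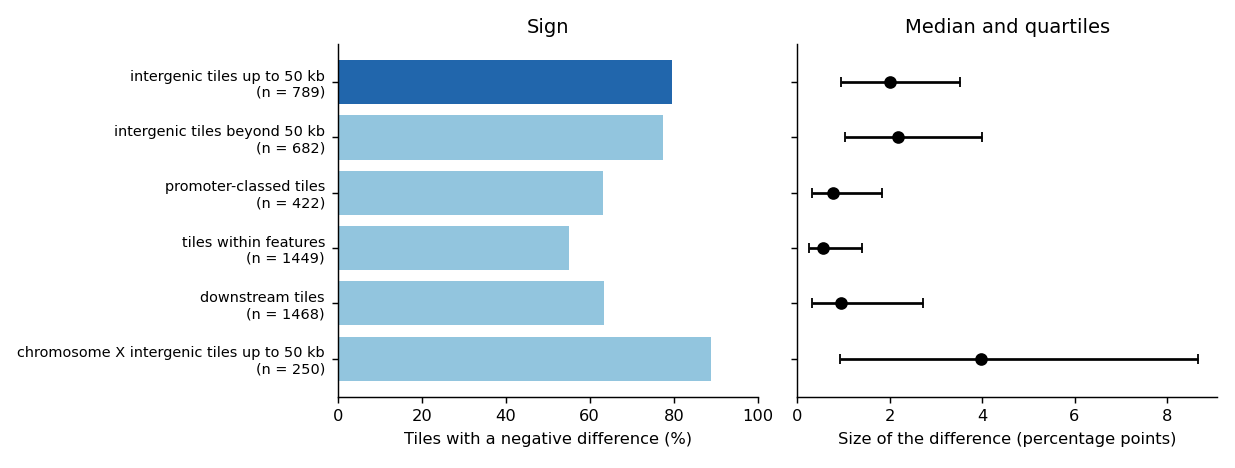
Share of tiles with a negative deposited difference (bars, %) and median size of the difference with its quartiles (points and lines, percentage points) for intergenic tiles within 50 kb, the other autosomal position classes outside the left-out stretches, and intergenic tiles of chromosome X. Both autosomal intergenic classes have larger medians (2.003 and 2.18 points) than the promoter, within and downstream classes (at most 0.938), and chromosome X has the largest (3.98).

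The deposited q did not bear the same relation to p on every chromosome. Within each of the 27 listed chromosomes, q followed the order of p without a break, whereas over the whole table the order was broken 2744 times. The largest p that still had a q under 0.05 ranged from 0.0415 on chromosome 10 to 0.503 on chromosome 28 among the chromosomes with intergenic tiles described here. For 508 of the 789 tiles q was smaller than p, and 32 tiles passed q under 0.05 with a p of at least 0.05. The largest such p, 0.395, belongs to chr20:22148201-22148700, near ENSBTAG00000053164, with a difference of -0.513 points.

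With the Benjamini-Hochberg adjustment of the deposited p over all 7290 listed tiles, 536 intergenic tiles (67.9%) passed 0.05, against 62.5% of all listed tiles. Of these, 463 were negative and 73 positive. The change removed 56 tiles and added 0. Chromosome 13 went from 198 to 179 tiles, chromosome 18 from 83 to 72 and chromosome 28 from 51 to 49. All 6 counted tiles passed under both, and the leading tiles of 3 unnamed genes, ENSBTAG00000017012, ENSBTAG00000050349 and ENSBTAG00000053164, did not pass after the adjustment. The adjustment covers listed tiles only, since the number of tiles the authors tested is not known here.

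**Figure D5:**
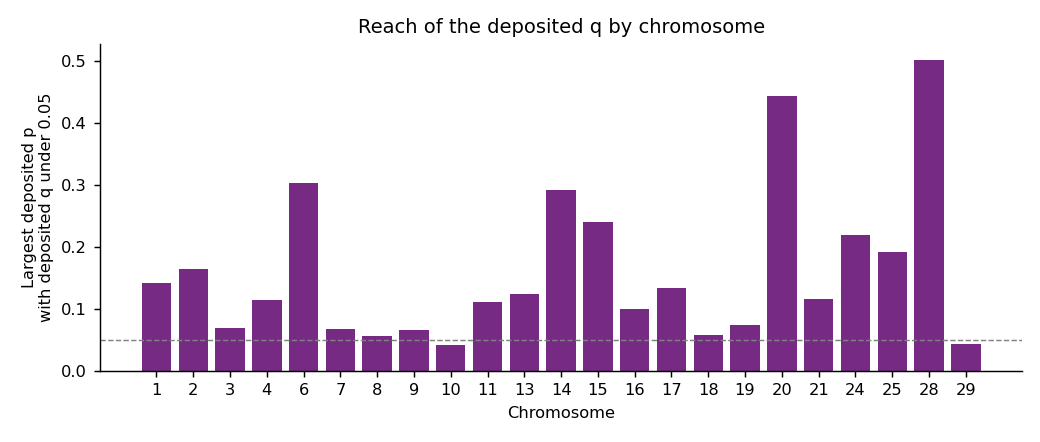
Largest deposited p-value that still had a deposited q under 0.05, for each chromosome that holds intergenic tiles within 50 kb. The dashed line marks a p of 0.05. Bars range from 0.0415 on chromosome 10 to 0.503 on chromosome 28, with 0.444 on chromosome 20.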

How the data were processed

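EM-seq of sperm DNA was analysed from 12 samples in 2 groups of 6, low BFI and high BFI, as the labels give them. Per the submitters' processing notes, the tools were Trimmomatic, Bismark and methylKit and the builds ARS-UCD1.2 and bosTau9, with no versions, roles or settings. The deposited table holds, per the file headers, the p-value, q-value and difference in methylation of 500 bp tiles. The deposited difference has no stated unit or direction and was treated as a score, read as percentage points. No column belongs to a single sample (0 were unmatched), so no new test between the groups and no fit without a replicate were possible.

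Tiles were selected by position class, distance and chromosome, and merged into loci at gaps of at most 1000 bp and into stretches at gaps of at most 50000 bp. A tile was counted at a deposited q under 0.05 and a difference of at least 10 points. Loci named are those with a counted tile, the 10 largest of each sign, the locus with the most tiles, the smallest q of each sign and the tiles at the distance limits. Genes named are the 12 named closest genes with the largest differences, with gene-list members. GREB1L, BTBD8, CORO2B, NKAIN2, the 6 stretches with the most tiles and the genes and tile given for the adjustment of q fall outside this rule and were named after their values were seen. The members and the lists were chosen with earlier results of these data known. Merging and the Benjamini-Hochberg step were tested on simulated data. Alternatives were other distance limits, thresholds, merging gaps and adjustments, and the inclusion or removal of stretches. Python 3.11.15, pandas 2.3.3, NumPy 2.4.6, SciPy 1.17.1 and matplotlib 3.10.9 were used. Genomic sequence was not used here.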

Additional observations from a re-analysis of the deposited data

How the results depend on the processing

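The count of 6 differentially methylated tiles depended on most choices. It was 3 with 1 tile per locus, 0 with a distance limit of 25 kb, 17 with a limit of 100 kb, 25 with the left-out stretches kept in, 47 with chromosome X included, 102 with a minimum difference of 5 points and 0 with one of 15 points. Without the 3 stretches with the most tiles, which was added once the data had been seen, it was 3. The count stayed at 6 with a q threshold of 0.01 and with the Benjamini-Hochberg adjustment. Tiles with a q under 0.05 numbered 76 of 94 with 1 tile per locus and 328 of 421 without the 3 largest stretches, against 592 of 789, where fewer tiles enter. They numbered 521 at a threshold of 0.01. The negative share, 79.6%, was 82.6% with the 25 kb limit, 75.9% with the 100 kb limit and 76.5% without the 3 largest stretches. The median size, 2.003 points, was 2.90 with 1 tile per locus, where the largest tile stands for each locus, and 2.29 without the 3 largest stretches. Loci numbered 132 when only overlapping tiles were merged and 76 with a gap of 5000 bp, against 94. No paired analysis was possible because the table holds no values per sample and the running numbers of the samples pair none. Depth limits each tile to an unknown extent.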

Other observations

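Of the 16 tiles of the counted chromosome 11 locus, 9 have the same start positions (5456201 to 5457001) as tiles listed on chromosome 6, in a stretch left out of the report. The deposited differences of these 9 tiles lay between -10.1 and -6.68 points on chromosome 11 and between -11.4 and -9.83 points on chromosome 6. Among the 70 intergenic loci beyond the first 1 Mb of a chromosome, this was the 1 locus with a tile start that the authors' deposited table also lists on another chromosome.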
